A study of Mus musculus with 20 samples.

Results

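Transcripts of 10 bile acid and organic anion transporters were followed in the livers of mice fed 4 diets. The set was fixed by gene symbol and holds Slc10a1, Slco1b2, Slco1a1, Slco1a4, Abcb11, Abcc2, Atp8b1, Abcc3, Abcc4 and Slc51b, 10 of the 18193 genes that the arrays name through a probe set of their own. A probe set is a group of short probes for 1 transcript, and each gene was read from its brightest probe set that names no other gene. All 10 were measured, and the mean of each over the 20 mice lay at or above the median signal of the arrays. The dimmest, Slc51b, at percentile 53.9, did so only through the CL-fed groups, since in all 5 NC mice its signal was below the median of its own array. In the other 9 genes no mouse was below.

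The livers came from 20 male C57BL/6J mice, with 5 mice and 5 arrays in each group. Feeding began at 7 weeks of age and lasted 12 weeks, and livers were taken after a fast of 2 h. The NC mice received normal chow. The CL mice received a diet in which fat gave 60% of the calories, with 0.5% sodium cholate, a bile acid salt, and 1.25% of added cholesterol, which is used to produce nonalcoholic steatohepatitis (NASH). The CL + AX and CL + VE mice received the same CL diet with 0.02% of astaxanthin, a carotenoid, or 0.02% of vitamin E, so the 3 CL groups share the fat, the cholesterol and the cholate, which cannot be told apart from each other here. Supplements were not given on normal chow.

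Hepatocytes take bile acids from the portal blood across their sinusoidal membrane, chiefly through the sodium-dependent transporter Slc10a1 and the sodium-independent Slco family, and secrete them into the canaliculus through Abcb11. When bile acids accumulate, efflux back to the blood can run through Abcc3, Abcc4 and the heterodimer of Slc51a and Slc51b. The nuclear receptor Nr1h4 (FXR) binds bile acids and is known to raise Abcb11 and Slc51b and, through the repressor Nr0b2 (SHP), to hold down Slc10a1 and the synthetic enzyme Cyp7a1.

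The sequence that Nr1h4 binds is an inverted repeat of the half-site AGGTCA spaced by 1 base, so the promoters of members were searched for it. RefSeq promoters (GRCm38.p6, the 250 bases before the start site) matched 8 of the 10 genes by symbol, in 10 windows, and Abcc3 and Atp8b1 had no entry. The letters AGGTCANTGACCT, on either strand and with up to 2 mismatches, stood in the windows of 2 members, Abcb11 and Slco1b2, and in 0.959% of 32851 promoters. The half-site alone, which every exact inverted repeat contains, stood in 6 of the 8 members with a window and in 14% of promoters. Members are counted per gene, where a match in any window suffices, but the shares are per promoter. Slc10a1 matched in only 1 of its 2 windows. The core of the antioxidant response element, TGACNNNGC, was found in Abcc2 and Abcc4 and in 10.2% of promoters. The windows of Abcb11 and Slc51b, which were higher in CL than in NC, and of Slco1b2, the other member with the repeat, are shown 5′ to 3′. They lie at chr2:69342617-69342866 on the minus strand, chr9:65422774-65423023 on the minus strand and chr6:141629268-141629517 on the plus strand. Capitals mark matches to the inverted repeat, or in Slc51b to the exact half-site.
Abcb11: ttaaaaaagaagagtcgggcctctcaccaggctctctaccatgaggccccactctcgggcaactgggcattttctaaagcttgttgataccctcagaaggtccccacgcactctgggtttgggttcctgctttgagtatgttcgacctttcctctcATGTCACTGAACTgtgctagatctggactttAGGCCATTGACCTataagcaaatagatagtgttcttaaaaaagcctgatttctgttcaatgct
Slc51b: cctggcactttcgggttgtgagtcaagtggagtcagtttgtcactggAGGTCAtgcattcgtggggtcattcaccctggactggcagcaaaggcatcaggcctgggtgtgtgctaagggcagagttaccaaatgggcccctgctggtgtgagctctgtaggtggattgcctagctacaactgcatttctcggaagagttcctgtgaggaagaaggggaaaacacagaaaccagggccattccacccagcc
Slco1b2: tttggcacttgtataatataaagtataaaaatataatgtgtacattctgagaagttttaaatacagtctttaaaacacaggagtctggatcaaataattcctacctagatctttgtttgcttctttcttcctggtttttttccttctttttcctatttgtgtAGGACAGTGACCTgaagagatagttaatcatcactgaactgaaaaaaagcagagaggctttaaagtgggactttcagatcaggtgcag
In Abcb11 the matches began 94 and 63 bases before the start site, with 2 mismatches and 1 mismatch, and in Slco1b2 88 bases before it with 1 mismatch. These matches are letters in a window and not measured binding.

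The arrays were compared on quantile normalized log2 signals, a scale on which 1 unit is a doubling, with limma and Benjamini-Hochberg adjustment over 45037 probe sets. Before scaling, the array medians of the deposited signal ran from 13.0 to 18.8 in NC, 19.4 to 24.8 in CL, 26.4 to 27.7 in CL + AX and 17.0 to 20.7 in CL + VE. The log2 ratio of 3′ to 5′ probe sets of Gapdh, a sign of RNA and label integrity, was 0.38 to 0.78 in NC and -0.26 to 0.11 over the 3 CL groups, and that of the added Dap transcript was 2.76 to 3.11 against 0.76 to 1.81. The same ratio for Actb was 1.54 to 1.95 in NC, 1.01 to 1.25 in CL, 1.07 to 1.23 in CL + AX and 1.32 to 1.51 in CL + VE, so it separated NC from the CL-fed mice and also CL + VE from CL and CL + AX. Array level and these ratios moved with the groups compared, and their part in the results was not tested. All 12 hepatocyte markers were measured and their quantile normalized mean lay between 13.05 and 13.20 in every mouse. That scaling gives each array the same set of values, so a mean of such bright genes can vary little. In CL against NC, 0 of the 12 were higher and 11 lower after median centring. The counts were 0 and 7 after trimmed-mean scaling and 1 and 1 on the signals as deposited. All 12 macrophage markers were higher in CL than in NC, and their mean lay between 5.05 and 6.54 in NC mice and between 7.87 and 9.90 in CL mice, and its part in the results was not tested. In whole liver, fewer cells of a type and less RNA per cell cannot be told apart.

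In CL livers the canalicular bile acid pump, a canalicular flippase and a basolateral efflux subunit were higher than in NC livers. Of the 4 uptake transporters, Slco1b2 was higher, with a sign that depended on the scaling. The other 3 did not pass the test. Neither did the canalicular Abcc2 and the basolateral Abcc4, and the basolateral exporter Abcc3 was lower. Of the 10 members, 4 were higher in CL (Slc51b, Abcb11, Atp8b1 and Slco1b2), 1 was lower (Abcc3) and 5 did not pass the adjusted p of 0.05. Over all probe sets 9.28% were higher and 8.29% were lower. The members all lie at or above the median signal, where calls are more frequent. A fit of only such probe sets called 4174 of 22519 higher and 4084 lower, larger shares than over all probe sets. The groups did not overlap for Abcb11, Atp8b1 and Slc51b, against 11.9% of all probe sets without overlap in either direction. The median log2 difference of the members was 0.19 and that of all genes was -0.04.

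**Figure D1:**
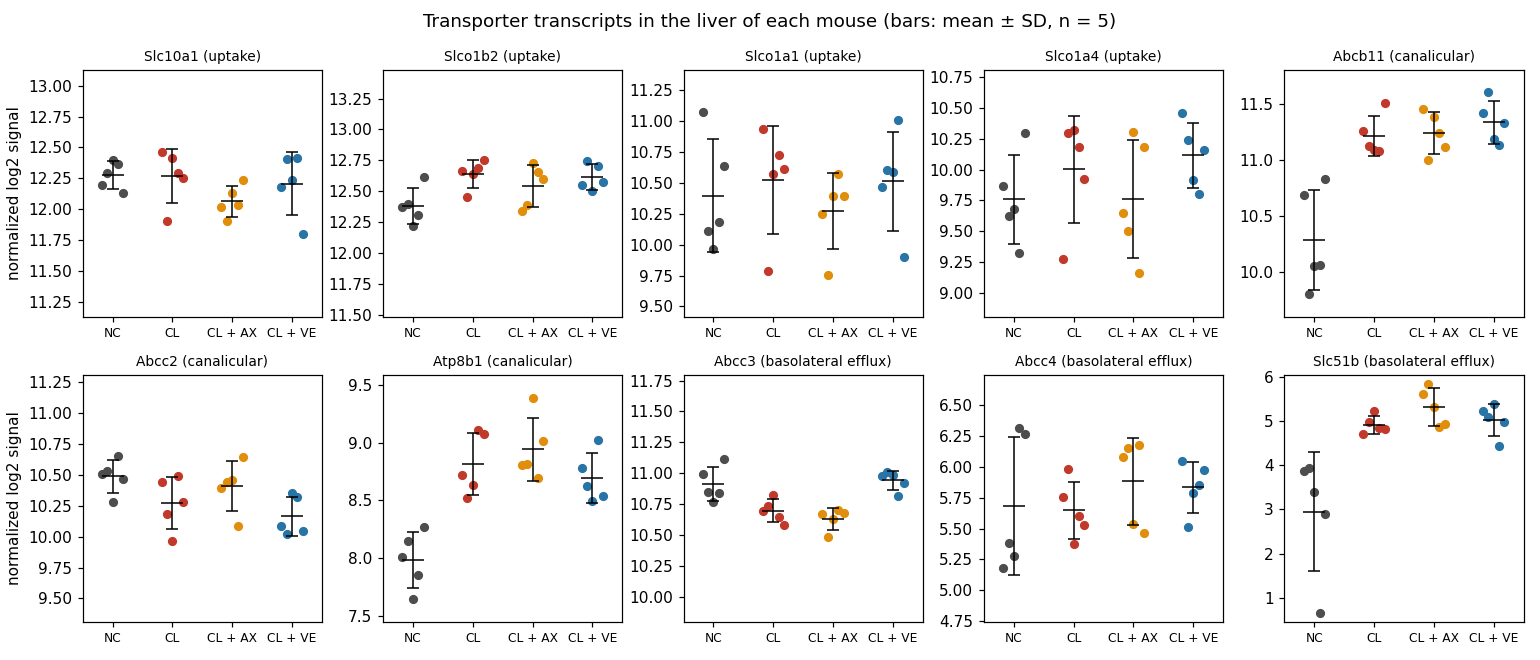
Normalized log2 signal (vertical axis) of the 10 transporters in each mouse of the 4 diet groups (horizontal axis), with the mean and SD of 5 mice. In Abcb11, Atp8b1 and Slc51b every mouse of the 3 CL groups lies above every NC mouse, and in Abcc3 the CL + AX mice lie below the NC and the CL + VE mice.

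Abcb11, the bile salt export pump of the canalicular membrane, had log2 signals of 10.69, 9.80, 10.05, 10.06 and 10.83 in the NC mice and 11.26, 11.12, 11.09, 11.07 and 11.50 in the CL mice. It read 11.45, 11.00, 11.38, 11.24 and 11.11 in the CL + AX mice and 11.41, 11.60, 11.19, 11.13 and 11.33 in the CL + VE mice. Every mouse of the 3 CL groups was above the highest NC mouse, and the NC mice were spread more widely (SD 0.45) than the CL mice (SD 0.18, n = 5). On the deposited signals, however, CL + VE replicate 3 (2041) was below NC replicate 5 (2075). CL was 1.90-fold higher than NC, with a log2 difference of 0.93 ± 0.15 (SE, limma adjusted p = 0.000176). The difference stayed between 0.80 and 1.06 when any 1 mouse was left out. The methods' t-test gave an adjusted p of 0.0689, and the adjusted p under the other alternatives ran from 2.11e-05 to 0.012.

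Atp8b1, a phospholipid flippase that keeps the canalicular membrane resistant to bile salts, read 8.01, 8.14, 7.65, 7.85 and 8.27 in NC and 8.72, 8.52, 8.63, 9.11 and 9.08 in CL. In CL + AX the log2 signals were 8.81, 8.81, 9.39, 8.70 and 9.02, and in CL + VE they were 8.79, 8.63, 8.49, 9.02 and 8.54. After quantile normalization no CL-fed mouse reached down to the NC range. On the deposited signals CL + VE replicate 3 (310) was below NC replicate 5 (327). The CL livers were 1.78-fold above the NC livers, a log2 difference of 0.83 ± 0.14 (SE, limma adjusted p = 0.000277).

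Slc51b, the beta subunit of the organic solute transporter, was the dimmest member, with log2 signals of 3.88, 3.94, 3.39, 0.65 and 2.91 in NC and 4.71, 4.98, 5.23, 4.84 and 4.82 in CL. The CL + AX mice read 5.62, 5.85, 5.33, 4.87 and 4.94 and the CL + VE mice 5.23, 5.10, 5.40, 4.45 and 4.99. One NC mouse, replicate 4, lay far below the other 4, with a deposited signal of 1.05, and all CL-fed mice were above all NC mice. CL was higher than NC by a log2 difference of 1.96 ± 0.43 (SE, limma adjusted p = 0.00232). Its size is rough, because the deposited NC signals, 1.05 to 13.3, were below the array medians, and with 16 added to all signals before log2 it was 0.87 ± 0.17 (SE, adjusted p = 0.000992). Leaving out single mice gave differences from 1.39 to 2.21, the lowest without NC replicate 4, all past the threshold. The adjusted p was 0.161 in the methods' t-test and 0.000298 to 0.0248 under the other alternatives. Among the latter, a filter on dim probe sets adds no support, since Slc51b passed it only through the CL-fed groups. The partner subunit Slc51a was dim as well, with mean log2 signals of 3.40 in CL and 4.01 in NC. It did not pass the test (log2 difference -0.61 ± 0.44, SE, limma adjusted p = 0.397), and a lack of change cannot be read from so dim a signal. Slc51a is named here after its value was seen.

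The third canalicular protein, Abcc2, exports bilirubin and other conjugates. It read 10.51, 10.53, 10.28, 10.66 and 10.47 in NC, 10.45, 10.18, 9.96, 10.49 and 10.28 in CL, 10.39, 10.45, 10.46, 10.09 and 10.65 in CL + AX and 10.09, 10.02, 10.36, 10.32 and 10.05 in CL + VE. All groups overlapped with NC. Between CL and NC the log2 difference was -0.22 ± 0.11 (SE, limma adjusted p = 0.187), with a 95% interval of -0.44 to 0.01.

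Abcc3 exports bile acid and drug conjugates to the blood. Its log2 signals were 10.99, 10.85, 10.77, 10.84 and 11.11 in NC, 10.70, 10.73, 10.83, 10.64 and 10.58 in CL, 10.67, 10.48, 10.63, 10.70 and 10.68 in CL + AX and 10.98, 11.01, 10.98, 10.82 and 10.92 in CL + VE. CL and NC overlapped in 1 CL mouse (10.83), the CL + AX mice were below all NC mice, and the CL + VE mice lay within the NC range. Abcc3 was 1.16-fold lower in CL than in NC, a log2 difference of -0.22 ± 0.07 (SE, limma adjusted p = 0.0321). In 5 of the 10 fits without 1 mouse this call was lost, with an adjusted p of up to 0.0923, when NC replicates 1 or 5 or CL replicates 1, 4 or 5 were left out. Abcc4, the other ATP-driven basolateral exporter, ranged from 5.18 to 6.31 in NC and from 5.38 to 5.98 in CL, and the difference of -0.03 ± 0.22 (SE) had a 95% interval of -0.49 to 0.42.

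Among the uptake transporters, Slc10a1, the main sodium-dependent carrier of conjugated bile acids, had a median log2 signal of 12.29 in NC (12.13 to 12.40) and 12.29 in CL (11.91 to 12.46). The CL + AX mice ranged from 11.90 to 12.24 and the CL + VE mice from 11.79 to 12.41. The CL minus NC difference was -0.01 ± 0.11 (SE), with a 95% interval from -0.24 to 0.22. Slco1a1, the organic anion carrier of male liver, ranged from 9.96 to 11.08 in NC and from 9.79 to 10.94 in CL, and Slco1a4, which also carries digoxin, from 9.33 to 10.30 and from 9.28 to 10.32. Neither passed the test, with differences of 0.13 ± 0.22 and 0.24 ± 0.22 (SE, limma adjusted p = 0.762 and 0.516).

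Slco1b2, the liver-specific carrier of bile acids and bilirubin, read 12.38, 12.40, 12.22, 12.31 and 12.61 in NC and 12.66, 12.45, 12.64, 12.69 and 12.75 in CL. Its signals were 12.34, 12.39, 12.73, 12.65 and 12.60 in CL + AX and 12.55, 12.74, 12.50, 12.70 and 12.57 in CL + VE. The groups overlapped through NC replicate 5. CL was 1.19-fold higher, a log2 difference of 0.25 ± 0.08 (SE, limma adjusted p = 0.0374). This call was lost in 8 of the 10 fits that leave out 1 mouse (NC replicates 1 to 4 and CL replicates 1, 3, 4 and 5), with an adjusted p of up to 0.109. The sign also depended on the scaling of the arrays, as given with the scalings.

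Slco1b2 is the member with the most probe sets, 5, and they did not move alike between CL and NC. Probe set 1427826_a_at ranged from 5.53 to 6.38 in NC, 7.67 to 8.68 in CL, 7.20 to 8.22 in CL + AX and 6.86 to 7.79 in CL + VE, with every CL-fed mouse above every NC mouse. Its log2 difference between CL and NC was 2.30 ± 0.23 (SE, limma adjusted p = 6.04e-07), against 0.25 in the brightest probe set, 1449394_at. The probe set 1452494_s_at differed by 0.67 ± 0.12 (SE, adjusted p = 0.00037) and the dim 1427825_at by 1.98 ± 0.47 (SE, adjusted p = 0.00481). The dimmest, 1452569_at, had a difference of -1.49 ± 0.64 (SE, adjusted p = 0.123). The probe sets of 1 gene can read different parts or forms of its transcript, and which part each reads was not examined. For 1427826_a_at, the CL + VE livers were 0.93 ± 0.23 below CL and the CL + AX livers 0.58 ± 0.23 below CL on the log2 scale, neither past the test (SE, adjusted p = 0.216 and 0.578). Slc10a1 and Slco1a1 had a second bright probe set each, with log2 differences between CL and NC of 0.19 and -0.16 that did not pass the test.

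**Figure D2:**
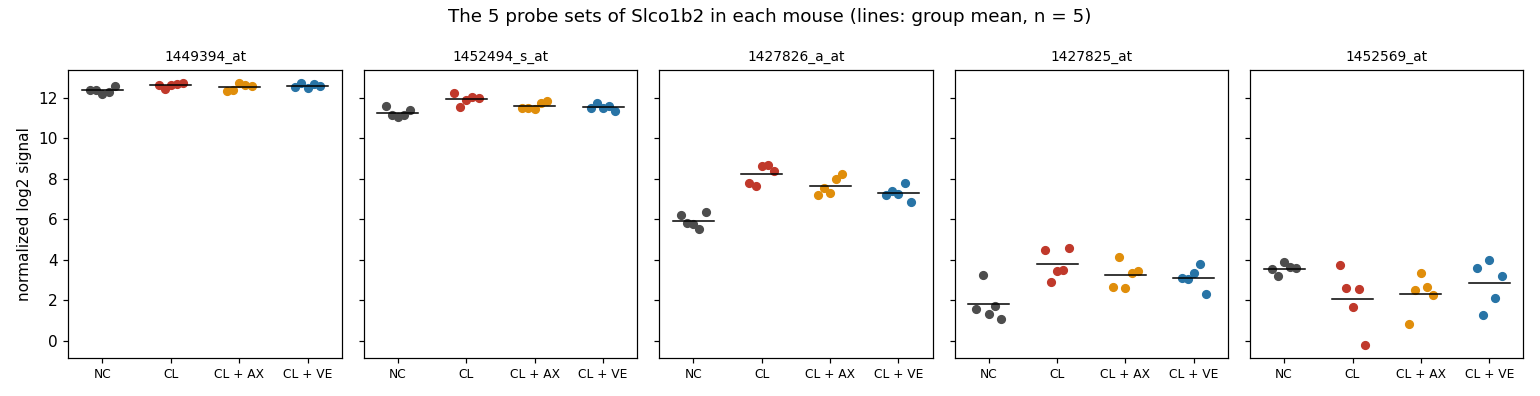
Normalized log2 signal (vertical axis) of the 5 probe sets of Slco1b2 in each mouse of the 4 groups (horizontal axis), with lines at the group means of 5 mice. 1449394_at, the probe set used for the gene, is nearly level from NC to CL (log2 difference 0.25; below 0 under median centring and trimmed-mean scaling), and 1427826_a_at rises by 2.30.

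Since array levels in the deposited values were unequal, the CL against NC comparison was repeated under 3 other scalings. The median over all probe sets was -0.04 after quantile normalization, 0.40 for signals as deposited, -0.10 after median centring and 0.04 after scaling to the trimmed mean. Abcb11, Atp8b1 and Slc51b kept direction and call under all 4, with log2 differences of 0.68 to 1.18, 0.76 to 1.26 and 1.95 to 2.45. Less the median of all probe sets, the signals as deposited differed by 0.78, 0.86 and 2.04. Over all probe sets, 4178 were higher and 3732 lower in CL after quantile normalization, 10279 and 435 as deposited, 3430 and 4809 after median centring and 5470 and 3230 after trimmed-mean scaling.

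Several small differences of the bright members depended on the scaling. Slco1b2 was 0.33 higher as deposited (adjusted p = 0.103) but -0.18 after median centring and -0.03 after trimmed-mean scaling. Abcc3 was 0.03 as deposited, -0.47 after median centring (adjusted p = 0.00155) and -0.33 after trimmed-mean scaling (adjusted p = 0.00241). Slc10a1 was -0.43 after median centring (adjusted p = 0.0237) and 0.07 as deposited, and Abcc2 was -0.43 (adjusted p = 0.0218) and 0.07. The deposited values stand on a median of 0.40 over all probe sets. Relative to it, Slc10a1 and Abcc2 were both -0.34, Abcc3 was -0.37 and Slco1b2 was -0.08. After quantile normalization the same 4, less the median of -0.04, were 0.03, -0.18, -0.18 and 0.29.

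**Figure D3:**
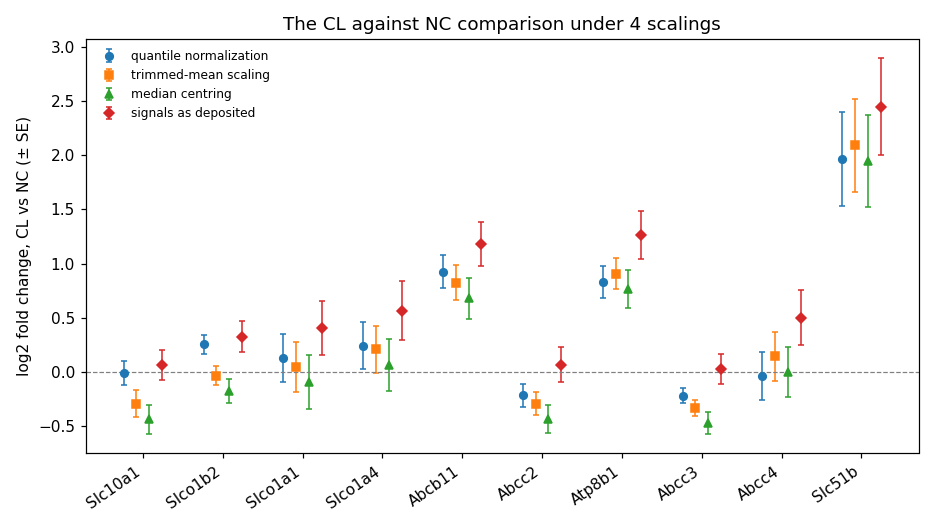
Log2 fold change of CL against NC (vertical axis, with SE) for the 10 transporters (horizontal axis) under 4 scalings of the arrays. Abcb11, Atp8b1 and Slc51b stay above 0 under each scaling, whereas Slc10a1, Slco1b2, Slco1a1, Abcc2, Abcc3 and Abcc4 have values on both sides of 0.

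A ratio of 2 transporters within an array does not depend on the scaling by a common factor, and such ratios were computed from the deposited signals after the values were seen, as a description. The log2 ratio of Abcb11 to Slc10a1 ran from -2.61 to -1.32 in NC, -1.30 to -0.71 in CL, -1.06 to -0.54 in CL + AX and -1.23 to -0.47 in CL + VE. For Atp8b1 to Slc10a1 it was -5.05 to -3.98 in NC and -3.75 to -3.05 in CL, and for Slc51b to Slc10a1 it was -12.05 to -8.71 and -7.71 to -6.72. In each of these 3 ratios the NC mice lay below all CL mice, for genes already seen to separate the groups, so the ratios add no independent evidence. The ratios of the other 6 members to Slc10a1 overlapped between NC and CL, among them Abcc2 (-2.33 to -1.69 in NC and -2.41 to -1.65 in CL), Abcc3 (-1.82 to -1.03 and -1.79 to -1.11), Abcc4 (-7.45 to -6.11 and -6.93 to -5.70) and Slco1b2 (-0.19 to 0.42 and 0.20 to 0.52).

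The same 3 genes were higher than NC in the supplemented groups, in comparisons that share the NC mice with CL against NC. In CL + AX, Abcb11, Atp8b1 and Slc51b were 0.95 ± 0.15, 0.96 ± 0.14 and 2.37 ± 0.43 above NC and Abcc3 was -0.28 ± 0.07 (SE, limma adjusted p = 0.000125, 5.94e-05, 0.000406 and 0.0057). That is 3 members higher and 1 lower of 10, where 9.06% and 8.17% of all probe sets were higher and lower. The groups did not overlap for 4 members, against 12.4% of all probe sets. In CL + VE, Abcb11, Atp8b1 and Slc51b were 1.05 ± 0.15, 0.71 ± 0.14 and 2.08 ± 0.43 above NC and Abcc2 was -0.32 ± 0.11 (SE, adjusted p = 9.24e-05, 0.0019, 0.00208 and 0.0472). Again 3 members were higher and 1 lower, where the shares of all probe sets were 7.19% and 5.9%, and 3 members did not overlap, against 9.27%. In the fit of the 22519 brighter probe sets, 3490 were higher and 3045 were lower. On the signals as deposited, Abcb11 and Atp8b1 did overlap between CL + VE and NC. The Abcc2 call was lost in 7 of the 10 fits without 1 mouse (NC replicates 1, 2, 4 and 5 and CL + VE replicates 1, 2 and 5), with an adjusted p of up to 0.118, and its groups overlapped. On the signals as deposited Abcc3 in CL + AX against NC was 0.07, where the median of all probe sets was 0.63, and Slc10a1 was -0.05 there but -0.82 under median centring and -0.54 under trimmed-mean scaling (adjusted p = 5.9e-05 and 0.00341). Abcc3, lower in CL and in CL + AX, was 0.03 ± 0.07 (SE, adjusted p = 0.857) in CL + VE against NC.

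Whether a supplement altered the transporters on the CL diet was tested directly. Between CL + AX and CL, 0 of 10 members passed limma's adjusted p in either direction, and 0 had an unadjusted p under 0.05, where 7.2% of all probe sets did. The methods' t-test after adjustment also gave 0. The share of all probe sets called was 0.00222% higher and 0% lower. No member separated the groups, against 1.71% of all probe sets. The log2 difference of Abcb11 was 0.03 with a 95% interval of -0.29 to 0.35, that of Atp8b1 0.13 (-0.17 to 0.43), and that of Slc51b 0.40 (-0.49 to 1.30). Slc10a1 differed by -0.20 (-0.43 to 0.02), Slco1b2 by -0.09 (-0.27 to 0.08) and Abcc3 by -0.07 (-0.21 to 0.08). The interval of Slc51b was the widest of these 6.

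Between CL + VE and CL the count was also 0 of 10 in limma and in the methods' t-test, with 1 member, Abcc3, at an unadjusted p under 0.05, as were 7.58% of all probe sets. The adjusted test called 0% of all probe sets higher and 0% lower, and 1.73% did not overlap. No member did so. The CL + VE livers had more Abcc3 signal than CL livers by 0.24 ± 0.07 (SE, limma adjusted p = 0.318), and only the highest CL mouse (10.83) reached the lowest CL + VE mouse (10.82). The paper, by its own tests, lists Abcc3 among regulator targets in its set of genes altered by vitamin E. Abcb11 differed by 0.12 (95% interval -0.20 to 0.44), Atp8b1 by -0.12 (-0.42 to 0.18) and Slc51b by 0.12 (-0.77 to 1.01).

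The supplements were also set against each other. Between CL + AX and CL + VE, 0 of 10 members passed the adjusted p in limma and in the methods' t-test, where 0.00222% of probe sets were higher and 0% were lower, and 2 members, Abcc3 and Abcc2, had an unadjusted p under 0.05, as did 8.92% of all probe sets. Only Abcc3 did not overlap, against 2.12% of all probe sets, with 10.48 to 10.70 in CL + AX and 10.82 to 11.01 in CL + VE. The Actb ratio of these groups did not overlap either, and its part was not tested. The log2 difference of Abcc3 was -0.31 ± 0.07 (SE), with a 95% interval of -0.45 to -0.17 and a limma adjusted p of 0.139. Under median centring Abcc3 passed, with -0.55 (adjusted p = 0.00765), and so did Slco1b2 with -0.40 (adjusted p = 0.0478), whereas on the signals as deposited they were -0.0031 and 0.15, with 0.43 as the median of all probe sets. For Abcc3 the adjusted p over all alternatives ran up to 0.989. Abcc2 leaned the other way, with 0.24 ± 0.11 (SE, adjusted p = 0.508).

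**Figure D4:**
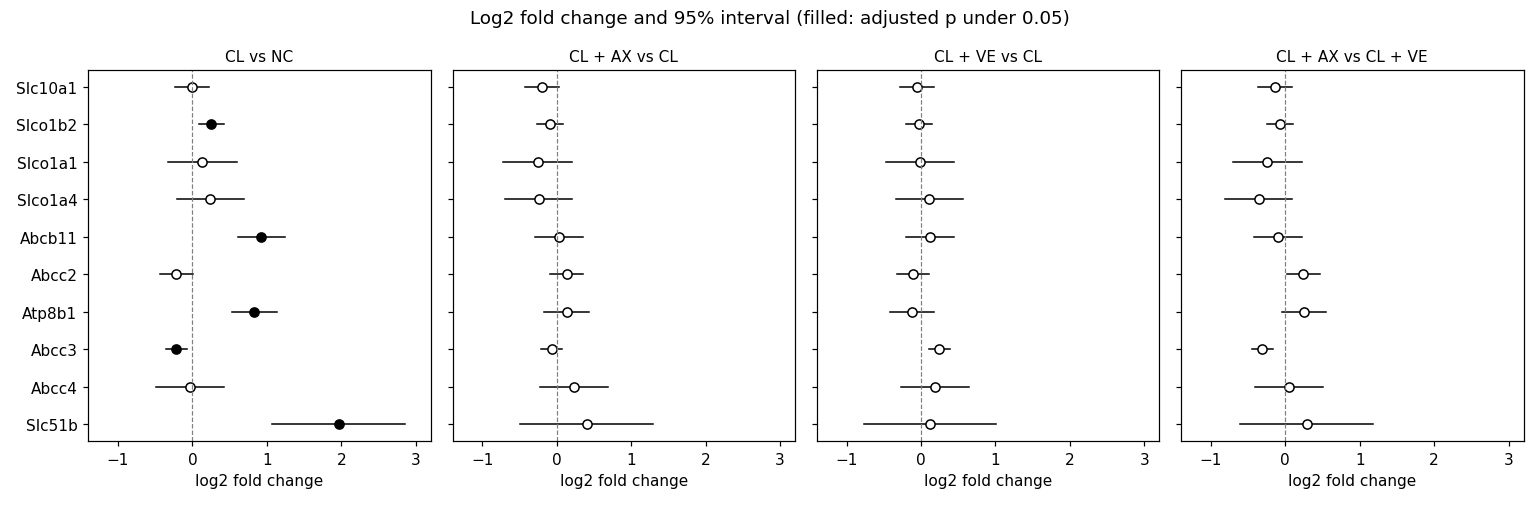
Log2 fold change with its 95% interval (horizontal axis) of the 10 transporters (vertical axis) in 4 comparisons, with filled points where the limma adjusted p was under 0.05. The filled points, Slco1b2, Abcb11, Atp8b1, Abcc3 and Slc51b, all stand in CL against NC (under other scalings Slco1b2 and Abcc3 change sign), and 0 are filled in the comparisons among the CL-fed groups.

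The enzymes that make bile acids were counted beside the carriers. Of 16 measured genes of bile acid synthesis and conjugation, 4 were higher and 4 were lower in CL than in NC, with a median of 0.12, but 1 was higher and 8 were lower under median centring (median -0.29) and 2 and 5 under trimmed-mean scaling (median -0.15). The 12-alpha hydroxylase Cyp8b1 was lower, with a log2 difference of -2.71 ± 0.28, and Cyp7a1, the rate-limiting enzyme of the classical pathway, was lower as well, with -2.69 ± 0.54 (SE, limma adjusted p = 9.88e-07 and 0.00109). The peroxisomal thioesterase Acot8 differed by -0.59 ± 0.10 and Hsd3b7, an enzyme of the sterol ring, was higher by 0.52 ± 0.12 (SE, adjusted p = 0.000313 and 0.00248). Between CL + AX and CL, and between CL + VE and CL, 0 of these 16 passed.

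Of 13 measured receptors and regulators of bile acid transport, 1 was higher and 7 were lower in CL than in NC, with a median of -0.29, but 3 were higher and 0 were lower on the signals as deposited (median 0.12, where the median of all genes was 0.39). Nfe2l2 (NRF2), a stress-response factor known to act on Abcc genes, was 0.90 ± 0.12 higher. Rxra, the partner of Nr1h4, was -0.44 ± 0.07, and the xenobiotic receptors Nr1i3 and Nr1i2 were -0.49 ± 0.10 and -0.53 ± 0.12 (SE, limma adjusted p at most 0.00287). Nr1h4 itself was -0.49 ± 0.13 (adjusted p = 0.0112) and Nr0b2 was 0.87 ± 0.30 (SE, adjusted p = 0.0502), both named after their values were seen.

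Of 24 measured further transporters, 6 were higher and 2 were lower in CL than in NC, with a median of 0.17 (-0.01 under median centring, and 11 higher and 1 lower on the signals as deposited). Abcg5 and Abcg8, the subunits of the canalicular sterol exporter, were 1.41 ± 0.19 and 1.16 ± 0.17 higher (SE, limma adjusted p = 1.53e-05 and 3.64e-05). The multidrug exporter Abcc1 was 1.38 ± 0.27 higher and the organic cation exporter Slc47a1 was -0.60 ± 0.12 (SE, adjusted p = 0.000779 and 0.000762). Abcb4, the canalicular phospholipid floppase, named after its value was seen, was 0.10 ± 0.09 (SE, adjusted p = 0.522). Of 12 scaffold and trafficking partners, 4 were higher and 5 were lower (median -0.11), against 5 and 0 as deposited (median 0.23, where that of all genes was 0.39) and 2 and 6 under median centring. The scaffold Pdzk1 was -1.01 ± 0.14 and the Vps33b partner Vipas39 -0.53 ± 0.12, whereas the membrane-cytoskeleton linkers Rdx and Msn were 0.43 ± 0.08 and 1.18 ± 0.27 higher (SE, adjusted p at most 0.00407).

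**Figure D5:**
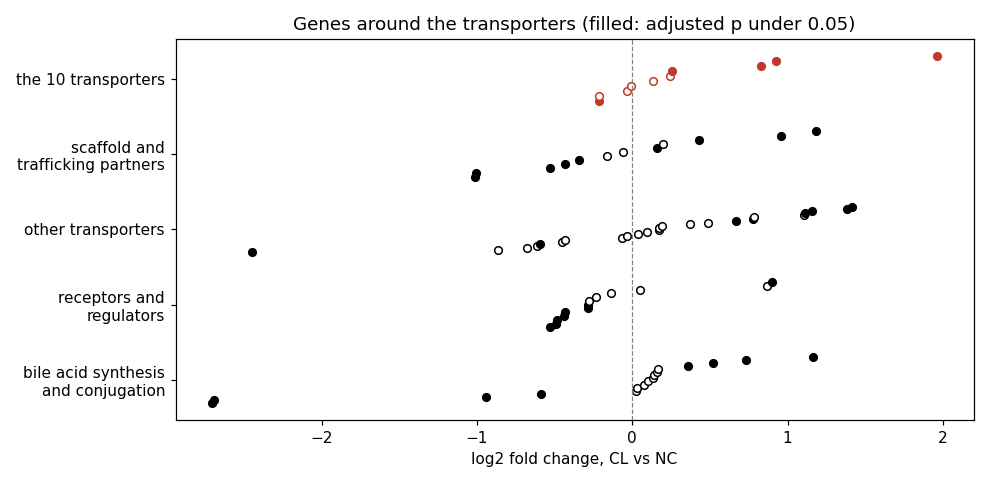
Log2 fold change of CL against NC (horizontal axis) for each measured gene of 4 pathway lists and for the 10 transporters (vertical axis), with filled points where the limma adjusted p was under 0.05. Cyp7a1 and Cyp8b1 lie at the far left near -2.7, and Slc51b, at 1.96, lies farthest to the right.

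The genes whose signal ran most like that of the 3 separated members over the 20 arrays were named from 11397 genes at or above the median signal, as a description. For Abcb11 these were Pcnp (r = 0.95), Mme (r = 0.95) and Gsta4 (r = 0.93), for Atp8b1 Tspyl1 (r = 0.94), Ugp2 (r = 0.93) and Uox (r = 0.93), and for Slc51b Rinl (r = 0.95), Tnip2 (r = 0.91) and Vsig10 (r = 0.90). With the group means taken out, r ran from 0.72 to 0.88 for these 9 pairs. The arrays share their diet groups, and the genes share the normalization of each array. Among the members themselves with group means taken out, Slco1b2 and Atp8b1 (r = 0.70) and Slco1a1 and Slco1b2 (r = 0.60) ran most alike. Abcc4 and Slc51b ran most apart (r = -0.53). In NC replicate 4, however, Slc51b was the lowest (0.65) and Abcc4 the highest (6.31) of all mice. The r of this pair was not computed without that mouse.

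The uptake transporters were set beside the macrophage marker mean of single mice, and they did not run alike. In CL replicate 2, whose macrophage marker mean of 9.90 was the highest of all mice, Slc10a1 (11.91), Slco1a1 (9.79) and Slco1b2 (12.45) were the lowest of the CL group, but Slco1a4 (10.30) was near its highest there and lowest (9.28) in replicate 1, whose marker mean of 7.87 was the lowest. In CL + VE replicate 5, with the highest marker mean of its group (9.40), Slc10a1 (11.79) and Slco1a1 (9.90) were the lowest of that group, whereas Slco1b2 (12.57) was at the group's median. In CL + AX replicate 2, with a marker mean of 9.48, Slc10a1 (11.90) and Slco1a1 (9.76) were again lowest, although replicate 4 had a marker mean of 9.49 with Slc10a1 at 12.03 and Slco1a1 at 10.57. These mice were picked after their values were seen, and the part of macrophage RNA in the transporter signals was not tested.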

How the data were processed

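RNA of 20 mouse livers was measured on Affymetrix mouse whole-genome arrays, 1 array per mouse and 5 per diet group, grouped by the diet in the labels. The authors summarized each probe set with MAS5 and deposited 1 linear intensity (signal) per probe set and array, with unequal array levels. The deposited table holds 45101 probe sets. The 64 control probe sets were left out. The remaining signals were log2 transformed and quantile normalized. Of the 45037 probe sets, 34945 name 1 gene, 932 several and 9160 none in the platform annotation, which is old, and the brightest one naming 1 gene was used per gene (18193 genes). Groups were compared with limma 3.58.1 in R 4.3.3, in 1 model that holds all 4 groups (16 residual degrees of freedom), with a variance trend and Benjamini-Hochberg adjustment over all probe sets (threshold 0.05). The study's methods use a Welch ANOVA across groups and a Welch test for pairs of groups. Only the pair test was kept as an alternative and is called the methods' t-test here. It was run on the quantile normalized values with Benjamini-Hochberg adjustment, so it does not repeat the study's own analysis or its counts. The steps were tested on simulated data. The 10 members and the gene lists were chosen with earlier results of these data known. Named from each pathway list were the 4 genes with the smallest p between CL and NC. Alternatives were other scalings, an offset of 16, a filter on dim probe sets, the mean over probe sets, a replicate block, the Welch test, fits of 2 groups and leaving out each array. Array number, 5 per group, limits the precision. Label and hybridization order are not given in the sources used here, so a processing batch cannot be told apart from diet.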

Additional observations from a re-analysis of the deposited data

How the results depend on the processing

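Abcb11, Atp8b1 and Slc51b kept their direction in CL, CL + AX and CL + VE against NC under every alternative run. Atp8b1 kept its calls under each, whereas Abcb11 and Slc51b lost theirs in the methods' t-test. For Slc51b the filter on dim probe sets adds no support, since the gene passed it only through the CL-fed groups. The methods' t-test left 1 member, Atp8b1, higher in each of the 3 comparisons against NC (4, 3 and 3 in limma) and 0 lower. Members lower in CL than NC, 1 in limma, were 0 on the signals as deposited, 3 under median centring, 0 in a fit of the 2 groups alone and 0 to 1 when 1 array was left out. Of all 45037 probe sets, 435 were lower as deposited, 4809 under median centring and 3007 in the fit of 2 groups. Members higher in CL + AX than NC, 3 in limma, were 4 as deposited, where 16207 of all 45037 probe sets were higher. The added member was Abcc4 (0.94, limma adjusted p = 0.00615, where the median of all probe sets was 0.63). Members higher in CL + VE than NC, also 3, were 4 without NC replicate 5, with Slco1b2 (limma adjusted p = 0.0204). The mean over probe sets also called Slco1b2 higher in CL + AX and CL + VE (adjusted p = 0.0345 and 0.0359), and the filter on dim probe sets in CL + VE (adjusted p = 0.037). Members lower in CL + AX than NC, 1 in limma, were 0 as deposited, 4 under median centring and 2 under trimmed-mean scaling. Of all 45037 probe sets, 389, 6588 and 3037 were lower under these scalings. Members lower in CL + VE than NC, again 1, were 0 as deposited, 0 with a replicate block (Abcc2, adjusted p = 0.0668) and 0 to 1 when 1 array was left out. All probe sets gave 596 lower as deposited and 2741 with the block. Over all probe sets the methods' t-test called 1701 higher and 1743 lower in CL than NC, against 4178 and 3732 in limma. It called 1911 and 2053 in CL + AX against NC and 821 and 811 in CL + VE against NC. Between CL + AX and CL + VE 1 probe set was higher and 0 were lower in limma, 1879 and 7 as deposited and 36 and 1616 under median centring. Median centring called 2 members, Abcc3 and Slco1b2, lower in CL + AX than in CL + VE. The replicate block changed no other call. Same-numbered arrays correlated at -0.20 to 0.31 after group means were taken out. The median was 0.13 between CL + AX and CL (0.04 to 0.31) and 0.01 to 0.03 in the other comparisons. For arrays of unlike number it was -0.01 (-0.38 to 0.41). Of 20 arrays, 9 correlated best with an array of their own number, though such arrays were a minority of those compared. These values do not settle whether the numbers pair the mice. The labels do not say so, and the main model holds no pairing.

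The signals as deposited had medians over all probe sets of 0.40 (CL against NC), 0.63 (CL + AX against NC), 0.19 (CL + AX against CL), -0.23 (CL + VE against CL) and 0.43 (CL + AX against CL + VE). On this scale log2 differences changed sign against NC for Slc10a1 (0.067), Abcc2 (0.067), Abcc3 (0.029) and Abcc4 (0.50) in CL, and for Slco1a1 (0.27), Abcc2 (0.30) and Abcc3 (0.072) in CL + AX. Against CL they did so for Abcc3 (0.043) in CL + AX and for Slco1a4 (-0.087), Abcb11 (-0.040), Abcc4 (-0.080) and Slc51b (-0.15) in CL + VE, and between CL + AX and CL + VE for Slc10a1 (0.088), Slco1a1 (0.061), Slco1b2 (0.15) and Abcb11 (0.16). Under median centring the sign changed against NC for Slco1a1 (-0.094), Slco1b2 (-0.18) and Abcc4 (0.0012) in CL, for Slco1a4 (-0.33) and Slco1b2 (-0.45) in CL + AX, where the adjusted p of Slco1b2 was 0.00482, and for Slco1a1 (-0.019), Slco1b2 (-0.050) and Abcc3 (-0.15) in CL + VE. Against CL it changed for Abcb11 (-0.15), Abcc2 (-0.038) and Atp8b1 (-0.023) in CL + AX and for Slc10a1 (0.071), Slco1a1 (0.075) and Slco1b2 (0.13) in CL + VE, and between the supplements for Abcc2 (-0.0072) and Abcc4 (-0.035). Trimmed-mean scaling turned Slco1b2 (-0.032) and Abcc4 (0.15) in CL, Slco1a4 (-0.045) and Slco1b2 (-0.16) in CL + AX and Abcc3 (-0.067) in CL + VE, all against NC, and Abcb11 (-0.0080) in CL + AX and Slc10a1 (0.011), Slco1a1 (0.016) and Slco1b2 (0.066) in CL + VE, all against CL. The mean over probe sets turned Slc10a1 (0.091) and Slco1a1 (-0.012) in CL against NC and Slco1a1 (0.032) in CL + VE against CL.

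With single arrays left out, differences against NC ranged from -0.060 to 0.080 for Slc10a1 and -0.16 to 0.12 for Abcc4 in CL, -0.23 to 0.048 for Slco1a1 and -0.14 to 0.15 for Slco1a4 in CL + AX, and -0.12 to 0.034 for Slc10a1, -0.0062 to 0.29 for Slco1a1 and -0.0079 to 0.078 for Abcc3 in CL + VE. Against CL they ranged from -0.026 to 0.10 for Abcb11 in CL + AX and from -0.15 to 0.045 for Slc10a1, -0.20 to 0.14 for Slco1a1, -0.067 to 0.19 for Slco1a4 and -0.071 to 0.0055 for Slco1b2 in CL + VE, and from -0.033 to 0.15 for Abcc4 between the supplements. Other than Slco1b2 in CL + AX against NC under median centring, none of these reversed values passed the adjusted p. The causes were not tested.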

Other observations

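Some hepatic transporters differ between the sexes in mice, so genes with known sex bias in liver were counted in these males. Of 8 measured male-biased genes, 0 were higher and 3 were lower in CL than in NC (median -0.08, against -0.04 over all genes), among them the fatty acid hydroxylase Cyp4a12a (-0.72), the nudix hydrolase Nudt7 (-0.84) and the complement subunit C8b (-0.44). On the signals as deposited 2 were higher and 2 were lower, and 5 were lower under median centring and trimmed-mean scaling. Of 9 measured female-biased genes, 1 was higher and 2 were lower, with the thioesterase Acot3 at -2.06, Cyp17a1 at -2.04 and Cyp2b13 at 1.83 on the log2 scale. The uptake carrier Slco1a1, itself higher in males, did not pass the test in any of the 6 comparisons.

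Markers of other liver cells moved with the CL diet beside the transporters. Of stellate cell, endothelial and lymphocyte markers, 8 of 10, 6 of 9 and 5 of 9 were higher in CL than in NC. The rest of these did not pass the test. Of 8 cholangiocyte markers 2 were higher, Krt23 (2.09) and Sox9 (0.89). The other 6 did not pass, with log2 differences from -0.17 (Krt19) to 1.37 (Epcam). The hepatocyte markers depended on the scaling, with 2 higher and 2 lower of 12 after quantile normalization and 0 higher and 11 lower after median centring.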
